A study of Mus musculus with 36 samples.

Results

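The genes described here are 10 genes of the endoplasmic reticulum (ER) stress response and the integrated stress response, Atf4, Ddit3, Hspa5, Xbp1, Trib3, Chac1, Asns, Atf3, Herpud1 and Sesn2. They were taken by name from the count tables of fetal mouse neural stem cells (NSCs) and of the extracellular vesicles (EVs) that these cells secreted. They are 10 of 40205 annotated features, and all 10 passed the filter on low counts in every comparison.

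The ER folds secreted and membrane proteins. When unfolded proteins accumulate there, sensors in its membrane start the unfolded protein response, in which ATF6 and spliced XBP1 raise chaperones and degradation factors. The integrated stress response joins this pathway where kinases phosphorylate the initiation factor eIF2, which lowers general translation and favors translation of ATF4, a transcription factor for amino acid synthesis, transport and stress genes. Ethanol is known to engage both responses in several tissues, and a neural progenitor that divides rapidly makes many secreted and membrane proteins.

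Cultures were neurospheres of dorsal telencephalon at gestational day 12.5 from C57/Bl/6J mice, which the study's methods name as the Ai14 reporter line on that background, used at passages 7 to 10. Tissue was pooled by sex within a pregnancy, so pregnancy sets 3, 4 and 5 each gave 1 female and 1 male culture, named here 3F, 3M, 4F, 4M, 5F and 5M. Each culture was kept for 5 days without ethanol, at 120 mg/dL (26 mM, moderate) or at 320 mg/dL (70 mM, high), and 4 flasks made 1 sample. Each sample gave 1 cell library and 1 EV library from its conditioned medium, which makes 36 libraries with 6 of each location and dose. A culture therefore stands for a pool of fetuses of 1 sex and not for a single animal, and its 3 doses share their founders.

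Cell libraries held 26.6 to 55.3 M (mega) counts and EV libraries 0.959 to 5.51 M. The 6 EV libraries under 2 M were all 3 of culture 4F, 3M at 120 and 320 mg/dL, and 3F without ethanol. Of 11 markers of neural stem cells and radial glia, 9 had a mean over 1 CPM in cells (counts per M of library size, with TMM scaling over all 36 libraries), with a summed level of 2595 to 4152 CPM, and Sox2 and Sox1 were at 0 in all 36 libraries. Both lie within a long noncoding gene on the same strand (Sox2ot and Sox1ot), where a counter can leave shared reads unassigned, so these zeros do not show that the RNAs were absent. Microglial markers summed to 0.314 to 0.606 CPM in cells (median 0.456) and endothelial markers to 1.26 to 4.24 CPM (median 2.62). Both sums were higher in EVs, at 0 to 12.1 CPM (median 2.51) and 3.07 to 48.95 CPM (median 6.11). The other marker lists had lower medians in EVs than in cells. The source of these EV counts was not tested. Oligodendrocyte lineage markers, all 7 with a mean over 1 CPM, summed to 301 to 589 CPM in cells. Progenitor and neuron markers summed to 428.5 to 883 CPM and astrocyte markers to 19.6 to 247 CPM. These are bulk libraries, in which fewer cells of a type and less RNA per cell cannot be told apart.

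On GRCm39, the build of the counts, the transcription factor genes are Atf4 (chr15:80139372-80141745, plus strand), Ddit3 (chr10:127124268-127132163, plus), Atf3 (chr1:190902493-190950241, minus) and Xbp1 (chr11:5470606-5483027, plus). The ER protein genes are Hspa5 (chr2:34661982-34668880, plus) and Herpud1 (chr8:95113022-95123141, plus). The metabolic and signaling genes are Trib3 (chr2:152179337-152191958, minus), Chac1 (chr2:119180757-119184866, plus), Asns (chr6:7671667-7728461, minus) and Sesn2 (chr4:132219335-132237815, minus). The counts are sums over the exons of a gene, so they do not separate unspliced from spliced Xbp1. Whether strand was used in counting is not given in the sources used here. Reads where Ddit3 overlaps Mars1 and Mbd6, Hspa5 overlaps Rabepk, or Xbp1 overlaps Ccdc117, all on opposite strands, are therefore uncertain, and GENCODE lists 2 overlapping genes named Ddit3.

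The promoters of 6 members hold a stress response element as written letters, and these are shown as background on known regulation, with no test against the counts. RefSeq windows (GRCm38.p6, 250 bases before to 50 after a start site, 1 for each member) were searched on both strands. The C/EBP-ATF response element (CARE, searched as TGATGNAA), which ATF4 dimers bind, was found in 5 of 10 members and in 3.97% of 32851 windows. The ER stress response element (ERSE, searched as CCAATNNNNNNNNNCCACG), which ATF6 binds with NF-Y, was found in Hspa5 and in 0.119% of windows. The second ERSE form (searched as ATTGGNCCACG) was found in Herpud1 and in 0.0365% of windows. Each line below runs 5′ to 3′ on the strand of the gene, with the match in capitals. The stretches lie at chr2:34771975-34772093 (Hspa5), chr8:94386267-94386437 (Herpud1), chr2:119350999-119351106 (Chac1), chr2:152344011-152344096 (Trib3), chr6:7693175-7693282 (Asns) and chr1:191183386-191183493 (Atf3) of GRCm38.p6.
Hspa5: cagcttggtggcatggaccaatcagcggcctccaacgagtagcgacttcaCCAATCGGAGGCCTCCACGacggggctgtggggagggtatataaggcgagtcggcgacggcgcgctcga
Herpud1: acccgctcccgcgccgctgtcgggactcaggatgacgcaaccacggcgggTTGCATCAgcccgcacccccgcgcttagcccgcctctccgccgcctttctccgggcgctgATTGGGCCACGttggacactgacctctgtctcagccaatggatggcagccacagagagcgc
Chac1: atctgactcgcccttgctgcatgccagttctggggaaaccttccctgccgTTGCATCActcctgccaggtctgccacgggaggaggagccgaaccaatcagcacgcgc
Trib3: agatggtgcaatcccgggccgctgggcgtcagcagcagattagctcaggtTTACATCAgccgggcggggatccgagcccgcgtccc
Asns: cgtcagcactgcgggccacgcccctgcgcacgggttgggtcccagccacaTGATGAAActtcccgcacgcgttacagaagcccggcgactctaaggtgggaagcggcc
Atf3: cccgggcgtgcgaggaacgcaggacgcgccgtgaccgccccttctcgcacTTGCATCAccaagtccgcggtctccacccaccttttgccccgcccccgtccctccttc
In Hspa5 the match starts 65 bases before the start site. In Herpud1 a CARE on the minus strand, read here as TTNCATCA, starts 112 bases before it and the ERSE form 52 bases before it. The CAREs of Chac1 and Atf3 start 193 and 110 bases before the start site on the minus strand, that of Asns 23 bases before it on the plus strand and that of Trib3 14 bases after it on the minus strand. The core TGACGTGG of the XBP1 element (0.676% of windows) and the cyclic AMP element TGACGTCA (1.79%) matched in no member. No match was found for Atf4, Ddit3, Xbp1 or Sesn2 in these windows. A match is a description of letters, and binding was not measured.

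Among members, transcript levels in cells ranged from 3.65 to 47.9 CPM per kb of the canonical transcript. These lengths leave out introns, and whether introns were counted is not known, so the order of the genes is uncertain. Atf4 was highest (47.9 ± 9.62 CPM per kb, SD over 18 libraries), followed by Asns (29.3 ± 7.56) and Ddit3 (24.9 ± 17.7). Xbp1 (16.8 ± 7.01), Hspa5 (16.8 ± 8.07) and Atf3 (14.2 ± 12.6) followed, and did not differ beyond their spread. Sesn2 (8.02 ± 3.81), Trib3 (5.61 ± 6.95), Herpud1 (5.14 ± 2.61) and Chac1 (3.65 ± 3.60) were lowest. In EVs the order was different: Sesn2 came first with 26.8 ± 6.46 CPM per kb, with Atf4 (24.7 ± 4.50), Asns (22.2 ± 8.98) and Ddit3 (20.5 ± 12.8) within its spread, and Hspa5 came last with 0.833 ± 0.392.

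The 10 genes differed far more between cultures than between ethanol doses. In cells, culture accounted for a median of 92.7% of a member's variance in log2 CPM and dose for 1.52%, beside 73.7% and 2.64% over all 17792 genes tested. The term for culture, with the 3 doses of a culture as its libraries, passed the test for 10 of 10 members in cells, as it did for 70.2% of all genes tested. In EVs it passed for 8 of 10, all but Hspa5 and Xbp1, beside 50.7% of all genes tested. These tests, which were added after the data were seen, measure a culture against the spread among its own libraries and say nothing of sex or of how many pregnancies would show it. The highest culture mean was more than 5 times the lowest for 4 members in cells, Trib3, Atf3, Chac1 and Ddit3, beside 8.47% of all genes.

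**Figure D1:**
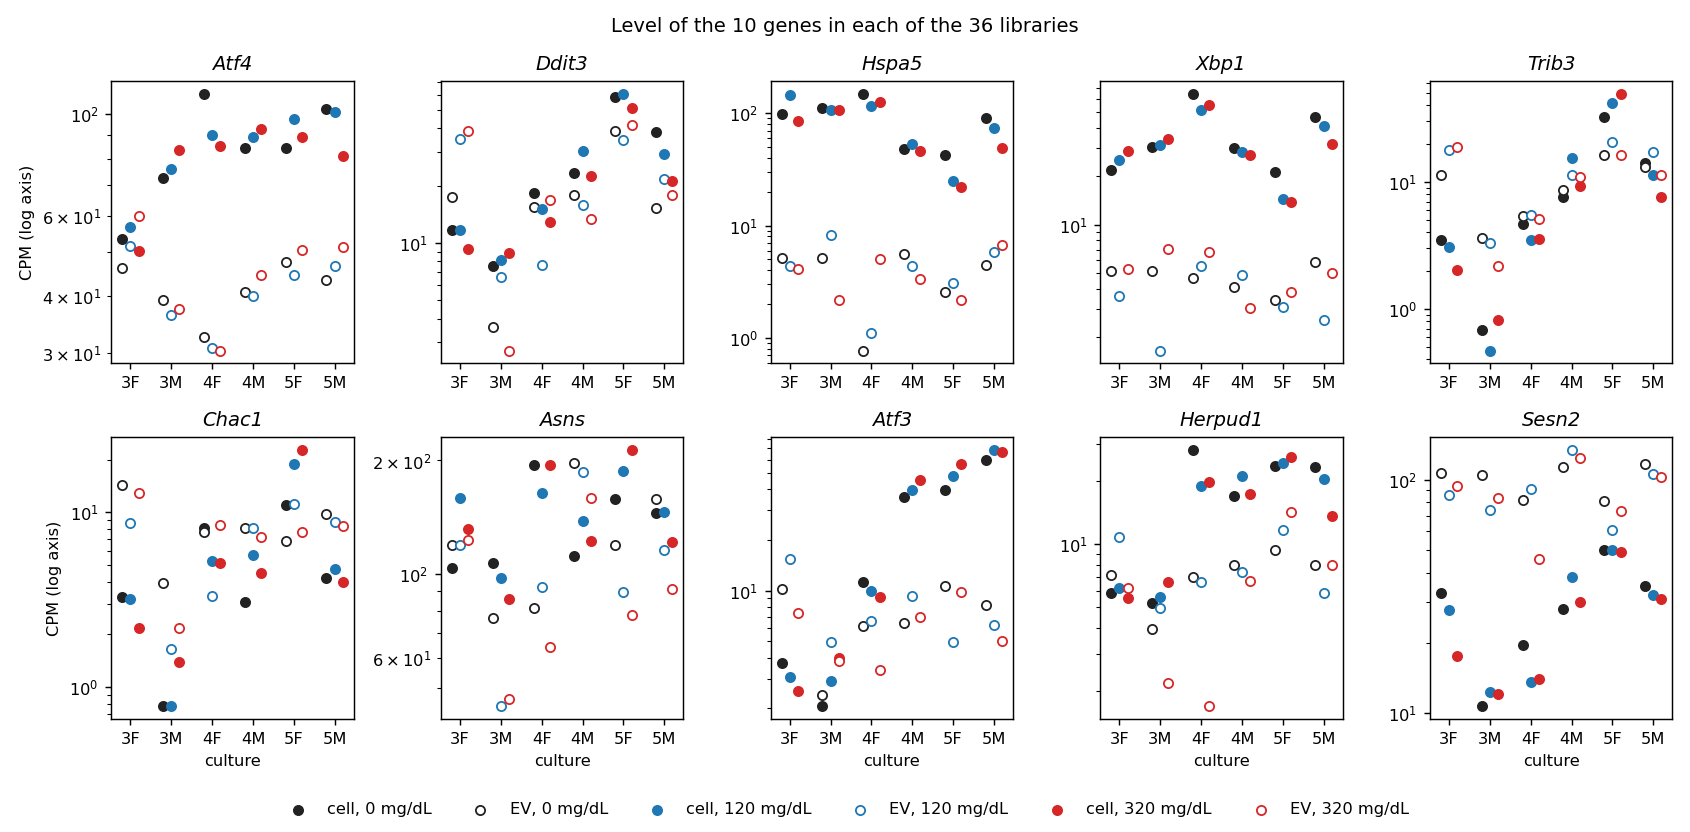
Level of each of the 10 genes (CPM, log axis) in the 36 libraries, by culture on the horizontal axis, with filled points for cells, open points for EVs and color for the ethanol dose. In cells, points of 1 culture lie close together beside the distance between cultures, as for Trib3, from 0.47 to 0.82 CPM in 3M and from 32.7 to 49.4 CPM in 5F.

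Trib3, a pseudokinase that ATF4 and CHOP induce and that restrains both, had the widest range of the members in cells. Its mean over the 3 libraries of a culture was 0.659 ± 0.176 CPM (SD) in 3M, 2.85 ± 0.73 in 3F, 3.91 ± 0.656 in 4F, 10.8 ± 4.17 in 4M, 11 ± 3.28 in 5M and 41.2 ± 8.35 in 5F. The highest mean was 62.5 times the lowest, and the libraries behind them held 39 to 48 counts in 3M and 1357 to 2558 in 5F. In EVs the order ended in the same cultures, from 3.04 ± 0.761 CPM in 3M to 17.8 ± 2.50 in 5F, a 5.86-fold range.

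The transcription factor genes Ddit3, Atf3 and Atf4 spread unequally. Ddit3, which encodes the pro-apoptotic factor CHOP, ranged in cells from 8.16 ± 0.661 CPM in 3M to 56.9 ± 5.07 in 5F, with 10.9 in 3F, 15.4 in 4F, 25.4 in 4M and 29.7 in 5M. Its EV level also ran from 3M (4.32 ± 2.04 CPM) to 5F (38.5 ± 3.40), but culture 3F, near the bottom in cells, was the next highest in EVs with 30.5 ± 11.5 CPM. Atf3, a stress-induced factor of the same family as ATF4, lay at 2.98 ± 0.963 CPM in 3M and 3.12 ± 0.597 in 3F, at 10.2 ± 1.07 in 4F, and at 40.3 ± 4.87, 48 ± 8.55 and 64.9 ± 4.57 in 4M, 5F and 5M. Single libraries ran from 2.06 to 68.7 CPM, and the highest culture mean was 21.8 times the lowest. Atf4 itself ranged only from 53.3 ± 3.25 CPM in 3F to 95.5 ± 13.5 in 4F, a 1.79-fold range.

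Of the metabolic and signaling genes, Chac1, a glutathione-degrading enzyme, ranged in cells from 0.978 ± 0.351 CPM in 3M to 17.6 ± 5.99 in 5F, an 18.1-fold range. Sesn2, a leucine sensor that restrains mTORC1, ranged from 11.7 ± 0.878 CPM in 3M to 49.6 ± 0.669 in 5F, a 4.25-fold range. Asns, asparagine synthetase, ranged from 96.9 ± 10.5 CPM in 3M to 186 ± 27.9 in 5F, where 4F (184 ± 17.7) lay within the spread of 5F. All of these had their lowest mean in 3M and their highest in 5F.

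Hspa5 and Xbp1 did not follow this order. Hspa5 encodes BiP, the main HSP70 chaperone of the ER lumen, and lay at 130.5 ± 16.7 CPM in 4F, 110.1 ± 31.9 in 3F, 109 ± 2.81 in 3M, 71.1 ± 21.0 in 5M, 49 ± 3.93 in 4M and 29.7 ± 10.8 in 5F. Xbp1, whose product raises ER chaperones once its RNA is spliced, ranged from 57.2 ± 6.95 CPM in 4F to 16.5 ± 4.18 in 5F. Culture 5F was thus the lowest of the 6 for both, and the highest of the 6 for Ddit3, Trib3, Chac1, Asns, Herpud1 and Sesn2. Herpud1, an ER membrane protein of the degradation machinery with both promoter elements, followed the order of Ddit3 and Trib3 at its ends, from 5.81 ± 0.717 CPM in 3M and 5.86 ± 0.317 in 3F to 24.7 ± 1.25 in 5F.

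**Figure D2:**
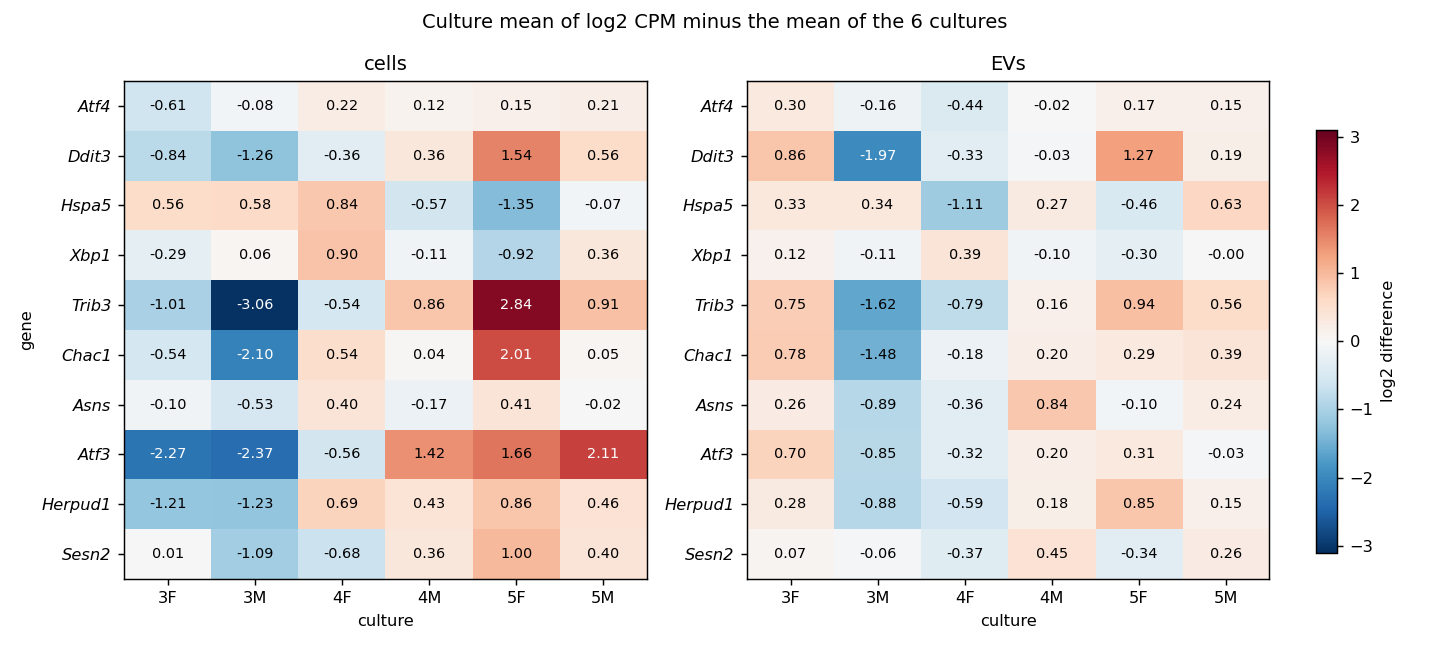
Mean log2 CPM of each culture minus the mean of the 6 cultures, by gene (rows) and culture (columns), in cells and in EVs, with red above and blue below the mean. In cells, 5F is above the mean for 8 of 10 genes and below it for Hspa5 (-1.35) and Xbp1 (-0.92), and 3M is the lowest culture for 7 of 10.

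The wider pathway lists also differed by culture. The ATF4 targets beyond the members are amino acid synthesis, transport and tRNA ligase genes, and others such as Cebpb, Ddit4, Gdf15 and Vegfa. Of 36 tested, 22 (61.1%) were highest in 5F and 22 were lowest in 3M, beside 20.4% and 20.15% of all genes tested. The median deviation from the mean of the cultures was 0.49 on the log2 scale in 5F and -0.44 in 3M. Of 20 tested ER chaperones and folding enzymes, 14 (70%) were lowest in 5F, beside 16.5% of all genes, with a median of -0.54, and 11 (55%) were highest in 3F, beside 24% of all genes, with a median of 0.51. Sensors and eIF2 regulators (21 tested, medians from -0.09 to 0.13) and ER-associated degradation genes (17 tested, medians from -0.09 to 0.10) had medians near the mean in every culture, with single sensors and regulators from -1.01 in 3M to 1.26 in 5F. In EVs, 17 of 32 tested ATF4 targets (53.1%) were lowest in 3M, beside 20.3% of all genes, and 12 (37.5%) were highest in 5F, beside 16.9%.

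Cell type markers also differed between these cultures. The summed level of the stem cell and radial glia markers fell between 2683 CPM (5F) and 3699 CPM (3M) as culture means, that of progenitor and neuron markers between 447 (3M) and 860.4 (4M), and that of astrocyte markers between 27.5 (3F) and 209.9 (3M), with Aqp4 at 0 in all libraries. The sum of oligodendrocyte lineage markers lay between 326.6 (5F) and 496.5 (3F), with 466.3 in 3M. The part of these markers in the differences between cultures was not tested. In EVs, 2 of the 3 libraries of 3M, the lowest culture for 6 of 10 members, held under 2 M counts. Cultures of 1 pregnancy also differed, as for Trib3 in 5F and 5M above, and a culture cannot be told apart from its own history of growth and passage.

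Ethanol did not move any of the 10 genes past the threshold in cells. At 120 mg/dL, 0 of 10 passed the test (edgeR quasi-likelihood, Benjamini-Hochberg adjusted p under 0.05), as did 0% of 17792 genes tested, with 0 of 10 members at an unadjusted p under 0.05 and 0 by DESeq2. Fitted log2 changes ran from -0.17 (Xbp1) to 0.17 (Chac1), with a median of -0.01, the same as over all genes. The 95% intervals of the 10 genes lay between 0.727-fold and 1.57-fold of control, so a change by a factor of 2 in either direction lay outside each of them. At 320 mg/dL, 0 of 10 members and 0.0393% of all genes passed (7 genes), with 2 of 10 members at an unadjusted p under 0.05, beside 8.57% of all genes, and 0 by DESeq2. The median member changed by -0.15, beside -0.005 over all genes. From 120 to 320 mg/dL, 0 of 10 members and 0% of all genes passed, also 0 of 10 at an unadjusted p under 0.05 and by DESeq2.

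The lowest adjusted p among members in cells was that of the chaperone gene Hspa5 at 320 mg/dL. Its level was 42.1 to 149 CPM in the 6 control libraries (median 94.5), 24.7 to 146 at 120 mg/dL (median 90.3) and 22.2 to 127 at 320 mg/dL (median 67.5). The 3 groups overlapped over most of their range. Within cultures it was below control at 320 mg/dL in 6 of 6, by -0.92 in 5F and -0.89 in 5M and by -0.07 to -0.23 in the others, on the log2 scale. The fitted change was -0.40 (SE 0.15, 95% interval -0.72 to -0.08, adjusted p = 0.477), and -0.13 without pregnancy set 5, whose cultures showed the largest falls. Ddit3 was below control in 5 of 6 cultures, from 7.52 to 58.7 CPM (median 20.8) to 8.84 to 51.1 CPM (median 17.0), with a fitted change of -0.29 (SE 0.12, interval -0.54 to -0.04, adjusted p = 0.513).

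The other 8 members gave no adjusted p below that of these genes in cells at 320 mg/dL. Sesn2 changed by -0.22 (SE 0.13), Atf3 by 0.20 (SE 0.14), Chac1 by 0.18 (SE 0.23), Xbp1 by -0.17 (SE 0.11), Trib3 by -0.16 (SE 0.22), Herpud1 by -0.14 (SE 0.13), Atf4 by -0.06 (SE 0.09) and Asns by 0.06 (SE 0.11). Behind these small averages, cultures moved in different directions. In 4F, 0 of 10 members were above control at either dose (medians -0.35 and -0.38). In 4M, 9 and 7 of 10 were above it (medians 0.31 and 0.11), in 3M 7 and 8, in 5F 8 and 6, in 3F 5 and 2, and in 5M 3 and 1. Both doses of a culture were compared with the same control library, so 1 unusual control would move all of them. Trib3 is an example, with 7.66, 15.5 and 9.21 CPM at 0, 120 and 320 mg/dL in 4M, 32.7, 41.5 and 49.4 CPM in 5F, and 14.2, 11.2 and 7.61 CPM in 5M.

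**Figure D3:**
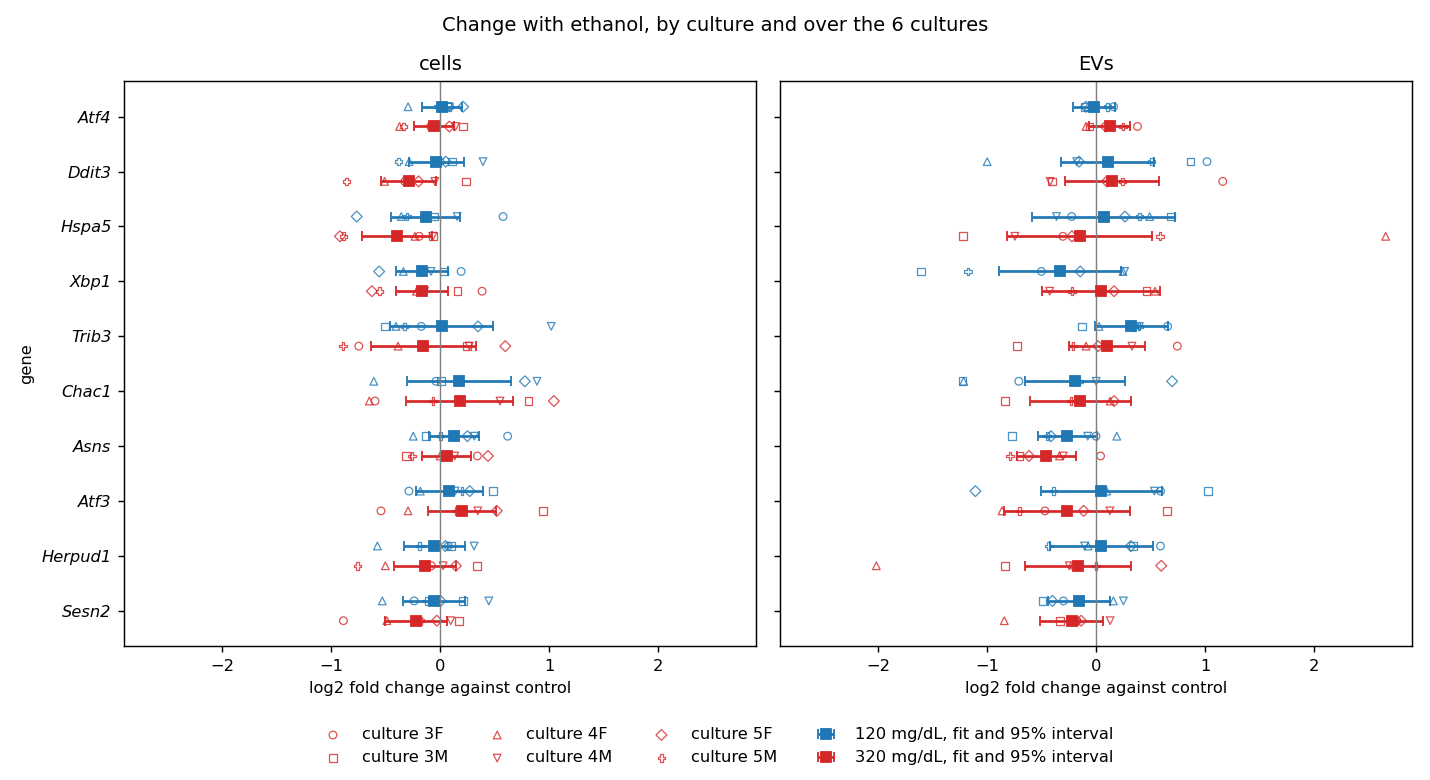
Log2 fold change against the control library of the same culture (open symbols, 1 for each culture) and fitted over the 6 cultures with its 95% interval (filled squares), for 120 mg/dL (blue) and 320 mg/dL (red), in cells and EVs. The interval excludes 0 for Hspa5 and Ddit3 in cells and for Asns in EVs at 320 mg/dL, of which none passed after adjustment over all genes.

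In EVs, 0 of 10 members passed at 120 mg/dL, beside 0.00842% of 11880 genes (1 gene), with 0 of 10 at an unadjusted p under 0.05 and 0 by DESeq2. The fitted changes ran from -0.33 (Xbp1) to 0.32 (Trib3), and intervals lay between 0.539-fold and 1.65-fold of control. At 320 mg/dL, 0 of 10 passed, beside 0.0842% of all genes (10 genes), with 1 of 10 at an unadjusted p under 0.05, beside 11.9% of all genes. By DESeq2 1 of 10 passed, beside 58 genes higher and 220 lower of 11880. The median member changed by -0.15, beside 0.01 over all genes. From 120 to 320 mg/dL, 0 of 10 members and 0% of all genes passed, with 0 of 10 at an unadjusted p under 0.05 and by DESeq2.

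That 1 member was Asns, the enzyme that makes asparagine. Its EV level was 76.4 to 197 CPM in the 6 control libraries (median 119.6), 44.7 to 186 at 120 mg/dL (median 104) and 46.8 to 159 at 320 mg/dL (median 84.6). Within cultures it was below control at 320 mg/dL in 5 of 6, by -0.79 in 5M, -0.71 in 3M, -0.62 in 5F, -0.34 in 4F and -0.31 in 4M, with 0.04 in 3F. In 3M, 5F and 5M both doses were below control by at least 0.4 on the log2 scale. The fitted change was -0.46 (SE 0.13, interval -0.73 to -0.19, adjusted p = 0.158 by edgeR and 0.0117 by DESeq2), from -0.71 to -0.30 over the alternatives tried, of which 1 of 16 passed. The counts behind it were 27 to 770 in a library.

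Counting error limits the other EV values. Hspa5 had 1 to 22 counts in an EV library, and its 2.65 log2 rise in 4F at 320 mg/dL rests on 1 count in the control and 3 at this dose. Herpud1 fell by 2.02 on the log2 scale in the same culture, from 9 counts to 1. The fitted EV changes at 320 mg/dL were 0.14 (SE 0.20) for Ddit3, 0.12 (SE 0.09) for Atf4, 0.10 (SE 0.16) for Trib3, -0.15 (SE 0.22) for Chac1, -0.15 (SE 0.31) for Hspa5, -0.17 (SE 0.23) for Herpud1, -0.23 (SE 0.13) for Sesn2, -0.27 (SE 0.27) for Atf3 and 0.05 (SE 0.25) for Xbp1. With library totals in place of TMM the median of all genes at 320 mg/dL was -0.23, and 0 of 10 members, including these positive ones, lay above control.

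The response of EVs was also set against that of cells. The difference of the 2 responses passed for 0 of 10 members at 120 mg/dL, beside 0.0107% of 18728 genes (2 genes), and for 0 of 10 at 320 mg/dL, beside 0%. At each dose 1 of 10 members had an unadjusted p under 0.05, beside 3.35% of all genes at 120 mg/dL and 5.37% at 320 mg/dL, and 0 passed by DESeq2. That member was Asns at both, with an EV response lower than that of cells by -0.44 (SE 0.21, interval -0.88 to -0.002) at 120 mg/dL and by -0.55 (SE 0.21, interval -0.99 to -0.12) at 320 mg/dL, with adjusted p of 1 and 0.853. For Ddit3 the difference at 320 mg/dL was 0.45 (interval -0.08 to 0.97), so the data do not show whether its EV response differs from that of cells.

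The wider pathway lists were counted in the same fits. Among ATF4 targets, sensors and eIF2 regulators, chaperones, and degradation genes, 0 genes passed by edgeR at either dose in cells or EVs. Unadjusted p was under 0.05 at 320 mg/dL for 6 of 36 ATF4 targets (3 by DESeq2 after adjustment), 1 of 21 sensors and regulators, 8 of 20 chaperones and 1 of 17 degradation genes in cells, beside 8.57% of all genes, and DESeq2 called 72 genes higher and 41 lower of 17792. Their medians in cells at that dose were -0.11, -0.08, -0.12 and -0.08, beside -0.005 over all genes. In EVs the medians were 0.02, -0.002, 0.09 and 0.02, beside 0.01. Unadjusted p was under 0.05 there for 5 of 32 ATF4 targets and 1 of 21 sensors and regulators. The same held for 1 of 16 chaperones and 3 of 14 degradation genes, beside 11.9% of all genes. DESeq2 called 1 ATF4 target, 1 chaperone and 1 degradation gene, beside 58 genes higher and 220 lower of 11880. At 120 mg/dL in EVs it called 1 of 14 degradation genes, beside 5 genes higher and 7 lower of 11880.

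The comparison of EVs with their cells of origin called 7 of the 10 genes, a share like that of all genes. On counts summed over the doses of a culture, 6 of 10 members were lower in EVs and 1 was higher, beside 35.4% and 34.7% of 19677 genes tested. Hspa5 was lower by a factor of 23.2 and Xbp1 by a factor of 8.44, while Sesn2 was 2.96-fold higher. The median member was at -0.98 on the log2 scale, beside -0.01 over all genes. With library totals both moved, to -1.47 and -0.51, so the values below are relative to the bulk of the genes and not amounts per vesicle. The paper gives high RNA integrity numbers for cells, and states that they could not be accurately calculated for EVs. The mitochondrial ribosomal RNA mt-Rnr2 held 3.80% to 16.15% of counts in EV libraries and 17.3% to 30.3% in cell libraries. The part of RNA integrity and library composition in these ratios was not tested.

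**Figure D4:**
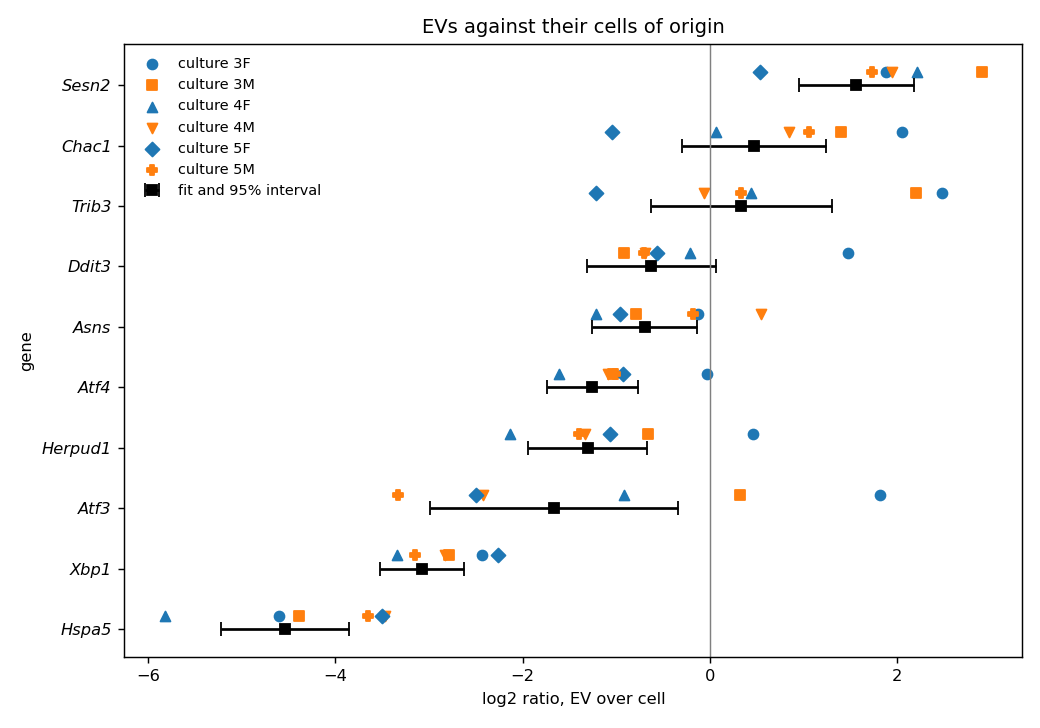
Log2 ratio of EV over cell for each gene, with the fit over the 6 cultures and its 95% interval (black squares) and the ratio of mean CPM in each culture (blue for female and orange for male cultures). Hspa5, Xbp1 and Atf4 are below 0 in 6 of 6 cultures and Sesn2 is above 0 in 6 of 6, whereas the other 6 genes have cultures on both sides.

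The 2 genes of the chaperone arm were the lowest in EVs. Hspa5 lay at 22.2 to 149 CPM in 18 cell libraries (median 88.4) and at 0.773 to 8.27 CPM in 18 EV libraries (median 4.36), and Xbp1 at 13.8 to 64.8 CPM (median 30.2) and 1.65 to 7.07 CPM (median 4.77). The groups did not overlap for either gene. The fitted log2 ratios were -4.54 (SE 0.32, adjusted p = 4.35e-07) for Hspa5 and -3.08 (SE 0.21, adjusted p = 3.62e-07) for Xbp1, lower in 6 of 6 cultures, and both passed under 17 of 17 alternatives. The most extreme culture value for Hspa5, -5.82 in 4F, rests on 5 counts over 3 EV libraries.

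Herpud1, the ER degradation factor, and the transcription factor genes Atf4 and Atf3 were lower in EVs by smaller amounts. Herpud1 lay at 5.22 to 28.2 CPM in cells and 1.69 to 14.2 in EVs, with a log2 ratio of -1.30 (SE 0.29, adjusted p = 0.00154), lower in 5 of 6 cultures and 0.46 in 3F. Atf4 lay at 50.1 to 111 CPM in cells and 30.4 to 59.8 in EVs, with a ratio of -1.25 (SE 0.22, adjusted p = 2.83e-04). For both the groups overlapped, and both passed under 17 of 17 alternatives. Atf3 had a ratio of -1.67 (SE 0.61, adjusted p = 0.0269) that was uneven over cultures, from -3.33 in 5M to 1.82 in 3F. It lost its call without set 4 (-1.45, adjusted p = 0.170), without set 5 (-0.70, adjusted p = 0.218), without culture 4M (-1.40, adjusted p = 0.0818) and without culture 5F (-1.38, adjusted p = 0.0689).

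Asns was lower in EVs by 0.70 on the log2 scale (fit -0.70, SE 0.26, adjusted p = 0.0280), with ranges that overlapped (86.1 to 214 CPM in cells, 44.7 to 197 in EVs), and was lower in 5 of 6 cultures with 0.54 in 4M. The call did not hold without set 5 (-0.65, adjusted p = 0.118), without culture 4F (-0.53, adjusted p = 0.0923), without culture 5F (-0.62, adjusted p = 0.0826) or in control libraries alone (-0.21, adjusted p = 0.511). Sesn2 was the 1 member higher in EVs, at 45.6 to 134 CPM beside 10.7 to 50.1 CPM in cells, with a ratio of 1.57 (SE 0.28, adjusted p = 3.32e-04) and higher in 6 of 6 cultures. Its ratio was 0.53 in 5F, the culture with the highest level in cells, and 2.91 in 3M, the culture with the lowest. The cell level is the divisor of this ratio, so such an order is in part built in. EV levels were 71.8 ± 9.99 CPM in 5F and 87.5 ± 15.6 in 3M. Sesn2 passed under 17 of 17 alternatives.

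Ddit3, Trib3 and Chac1 did not pass. Ddit3 had a ratio of -0.63 (interval -1.32 to 0.06, adjusted p = 0.0944), negative in 5 of 6 cultures and 1.48 in 3F, and passed under 5 of 17 alternatives. These were the fits without culture 3F (-1.06, adjusted p = 5.54e-04), without set 3 (-1.02, adjusted p = 0.00156), with library totals (-1.13, adjusted p = 0.00702), without the filter (-1.13, adjusted p = 1.64e-04) and in control libraries alone (-0.59, adjusted p = 0.0470). Trib3 had 0.34 (interval -0.63 to 1.31) and Chac1 0.47 (interval -0.30 to 1.24), and with library totals the signs became negative (-0.16 and -0.02). Their culture ratios spanned -1.21 to 2.48 and -1.05 to 2.06, with 5F lowest for both and 3F highest. In culture 3F the ratio was the highest of the 6 cultures for 6 members, Atf4, Ddit3, Trib3, Chac1, Atf3 and Herpud1.

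The wider lists were also mostly lower in EVs. Of 20 tested ER chaperones and folding enzymes, 18 were lower and 1 higher, beside 35.4% and 34.7% of all genes, with a median log2 ratio of -3.32, beside -0.01 over all genes. Pdia4 (-4.45, SE 0.23), Dnajb9 (-4.38, SE 0.24) and Hsp90b1 (-4.31, SE 0.30), a disulfide isomerase, a BiP co-chaperone and the ER HSP90, stood beside Hspa5. Hsp90b1, the most abundant of them, lay at 382 ± 169 CPM in cells and 22.4 ± 8.54 in EVs (SD, n = 18). Txndc5, another disulfide isomerase, was the exception at 1.63 (SE 0.26).

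Of 17 tested degradation genes, 14 were lower and 1 higher, beside 35.4% and 34.7% of all genes (median -1.41), with Selenos (-3.27, SE 0.23), Sel1l (-2.68, SE 0.20) and Syvn1 (-1.95, SE 0.32) lowest. Sel1l and Syvn1 form the core of the ER ubiquitin ligase complex. Nploc4, a cofactor of the ATPase VCP, was higher (0.50, SE 0.20), and passed under 8 of 17 alternatives. Of 21 sensors and eIF2 regulators, 15 were lower and 2 higher, beside the same shares of all genes (median -1.44). Eif2s1, which encodes the phosphorylated eIF2 subunit, was lowest (-2.99, SE 0.22), then Creb3 (-2.77, SE 0.27) and Eif2b3 (-2.23, SE 0.29). The 2 that were higher were Eif2ak4, the kinase GCN2 that senses uncharged tRNA (1.78, SE 0.23), and Ppp1r15b, the constitutive phosphatase subunit for eIF2 (1.37, SE 0.25).

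Of 35 tested ATF4 targets, 28 were lower and 2 higher, beside 35.4% and 34.7% of all genes (median -1.28). The lowest 3 were amino acid transporter genes, Slc7a11 (-2.98, SE 0.33), Slc7a3 (-2.29, SE 0.28) and Slc3a2 (-2.24, SE 0.22). The 2 that were higher were Wars, the tryptophan tRNA ligase (2.19, SE 0.28), at 374 ± 135 CPM in EVs beside 64.7 ± 13.8 in cells, and Jdp2, a leucine zipper repressor (0.81, SE 0.27). Jdp2 passed under 10 of 17 alternatives, and all others named from these lists except Nploc4 under 17 of 17. Dnajb9, Selenos, Syvn1, Creb3 and Slc7a3 each had EV libraries at 0 counts, so their ratios carry a larger counting error than those of the abundant genes.

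By edgeR, no member passed the threshold between female and male cultures, and by DESeq2 Chac1 passed in cells. With 3 female and 3 male sums and pregnancy as a block, 0 of 10 passed in cells, beside 0.0334% of 20972 genes. At an unadjusted p under 0.05 there was 1 of 10, beside 7.78% of all genes. DESeq2 called 1 of 10, beside 195 genes higher and 99 lower of 20972. In EVs 0 of 10 passed, beside 0% of 14847 genes, with 0 at an unadjusted p under 0.05, beside 20.7% of all genes, and 0 by DESeq2. The member in cells was Chac1, higher in the female culture of 3 of 3 pregnancies. Its means were 2.89 and 0.978 CPM in 3F and 3M, 6.18 and 4.39 in 4F and 4M, and 17.6 and 4.31 in 5F and 5M. The fitted difference was 1.29 (SE 0.34, interval 0.44 to 2.15, adjusted p = 0.529 by edgeR and 0.0275 by DESeq2). For Trib3 the interval ran from -1.10 to 2.88, so a difference by sex as large as several-fold could not be told from none with 3 pregnancies.

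The response to 320 mg/dL did not differ between the sexes past the threshold for any member, in cells (0 of 10, beside 0% of 18725 genes) or in EVs (0 of 10, beside 0% of 13193 genes). At an unadjusted p under 0.05 there were 2 of 10 in cells, beside 18% of all genes, and 0 of 10 in EVs, and DESeq2 called 0 in both. The 2 in cells were Sesn2, with a female minus male difference of -0.55 (SE 0.22, interval -1.03 to -0.07, adjusted p = 0.242), and Atf3 with -0.57 (SE 0.26, interval -1.14 to -0.01, adjusted p = 0.269).

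Within cultures, some of the 10 genes moved together in cells. Deviations of log2 CPM from the mean of the culture were compared over the 18 cell libraries, 3 of each of 6 cultures. The 3 libraries of a culture differ in ethanol dose and in depth. Their deviations are taken from a shared mean, so the 18 values are not independent. With Ddit3, Pearson's r was 0.86 for Herpud1, 0.76 for Atf4, 0.72 for Trib3 and 0.68 for Sesn2. It was 0.46 for Xbp1, 0.42 for Chac1, 0.18 for Atf3 and 0.17 for Asns. With Hspa5 it was 0.73 for Xbp1, 0.67 for Ddit3, 0.53 for Herpud1 and 0.41 for Sesn2. For Atf4, Trib3 and Asns it was 0.395, 0.30 and 0.21, and it was -0.09 for Chac1 and -0.24 for Atf3. Among 9886 genes with a mean of at least 5 CPM in cells, the 3 outside the list most like Ddit3 were N4bp2l1 (0.92), Slc25a40 (0.91) and Dnajc7 (0.89), and the 3 most like Hspa5 were the disulfide isomerases Pdia6 (0.95) and Pdia4 (0.95) and the splicing factor Hnrnph1 (0.91). These values are descriptions of 18 libraries, and the highest of so many genes are high in part because they were selected. How common such values are among all genes was not examined.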

How the data were processed

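RNA was sequenced from 18 cell and 18 EV samples with a stranded kit after ribosomal RNA depletion. According to the methods and the labels, the authors trimmed adapters and removed duplicate reads in SeqSense, quality-trimmed with Trimmomatic, aligned to mm39 with STAR and ran HTSeq. The deposited files hold its whole-number count of each gene, not normalized. The annotation used for counting, and whether introns were counted, are not given in the sources used here. Low depth in EVs leaves members such as Hspa5 with 1 to 22 counts in a library, and intervals of single libraries would cover counting error only.

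The main tests used edgeR 4.0.16 under R 4.3.3 (filterByExpr with minimum count 10 and minimum total count 15, TMM, quasi-likelihood F tests, Benjamini-Hochberg adjustment over all genes tested, threshold 0.05). Ethanol was tested within each location with culture as a block, EVs against cells on counts summed over the doses of a culture with culture as a block, and sex on such sums with pregnancy as a block. The difference between the EV and the cell response had a block for each pair of EV and cell samples and a term for location within culture. Whether the response differed by sex was tested with culture as a block. The blocks come from the study's design, in which the doses and the EVs of a culture share its founders and the 2 cultures of a set share a pregnancy. Deviations from the condition means correlated by 0.42 to 0.75 between libraries of a culture in cells and by 0.11 to 0.61 in EVs, all over the limit of 0.1. For the female and male culture of a pregnancy, 1 of 9 pairs in cells and 2 of 9 in EVs were over it, and of the 18 pairs of an EV and a cell sample 7 were.

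CPM values used TMM scaling, and log2 CPM a prior count of 1. Levels per kb used Ensembl canonical transcript lengths of GENCODE vM39. Named genes are the 10 members, for each of 4 pathway lists at most 3 genes a direction with the largest change past the threshold, and the 3 genes most like Ddit3 and Hspa5. The members, lists and tests were chosen with earlier results of these data known. Alternatives were DESeq2 1.42.0, size factors by median of ratios, scaling to library totals, testing without the filter, leaving out each pregnancy set, and other blocks and sample sets. Seeing the data prompted 2 more, leaving out each culture and leaving out EV libraries under 2 M counts. The scripts were tested on simulated data. Promoters came from RefSeq windows, and figures were drawn with matplotlib. Nothing says that the samples of a culture came from separate platings, so p-values for ethanol measure the spread between these samples, which may be technical in part.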

Additional observations from a re-analysis of the deposited data

Results flagged for a closer look

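Of 60 groups (10 genes, 2 locations and 3 doses, 6 libraries each), 4 had a library far from the others, and chance alone flags about 1 in 20 groups. The measure is the gap to the nearest library as a share of the whole range of the group, both on the log2 CPM scale. The levels below are given in CPM, on which these shares would differ. Atf4 in cells at 320 mg/dL was lowest in culture 3F, at 50.1 CPM beside 81.1 to 92.7 CPM in the others (0.783). The other 3 were all EV libraries of culture 3M at the low end. Chac1 at 320 mg/dL was at 2.18 CPM from 4 counts, beside 7.27 to 13 CPM (0.674), Herpud1 without ethanol at 3.92 CPM from 13 counts, beside 6.96 to 9.41 CPM (0.653), and Atf3 without ethanol at 2.42 CPM from 8 counts, beside 6.18 to 10.7 CPM (0.630). No cause was tested.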

How the results depend on the processing

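For ethanol, the count of members past the threshold stayed at 0 of 10 in each of the 6 comparisons under every alternative, leaving out each set or culture included, except that DESeq2 gave 1 at 320 mg/dL in EVs (Asns). Between EVs and cells it was 7, with 5 to 8 without a set, 6 to 8 without a culture and 7 to 8 otherwise, and no called member changed sign. Single fits lost Atf3 or Asns or gained Ddit3, as given above. Chac1 was gained with the EV and cell pair as replicate block (0.74), in control libraries alone (0.99) and without culture 5F (0.78). For sex in cells DESeq2 gave 1 member, beside 195 genes higher and 99 lower of 20972. The fit on 18 libraries with pregnancy as replicate block, which takes the doses of a culture as independent, gave 3 (Chac1, Asns and Atf3). It called 1193 genes higher and 1760 lower of 17052 in cells. In EVs that fit gave 1 and the fit without a filter on low counts gave 1 (Ddit3 in both). Over all genes they called 1568 higher and 1422 lower of 11037, and 939 higher and 158 lower of 29604. The fits without a block gave 0 members for ethanol, for sex, for the difference of responses and for sex by ethanol. Between EVs and cells they gave 7, as with the block. A count already at 0 cannot fall, so these zeros do not show that the block made no difference. Without the block, 266 genes had an unadjusted p under 0.05 by edgeR at 320 mg/dL in cells, beside 1525 with it. Of members, 0 did so, beside 2. The EV fits at this dose had 507 such genes without the block, beside 1410 with it, and 0 members beside 1. Counts of all genes past the threshold moved more than counts of members. At 320 mg/dL in cells DESeq2 called 72 genes higher and 41 lower, beside 7 genes by edgeR. For EVs it called 58 higher and 220 lower, beside 10 genes by edgeR. With library totals the median of all genes moved to -0.12 in cells and -0.23 in EVs at 320 mg/dL, to -0.20 and -0.14 for the difference of responses and to -0.20 and -0.16 for sex by ethanol. Depth limits the EV values of Hspa5, Xbp1 and Herpud1, and 3 cultures a sex limit the tests of sex. The causes of these changes were not tested.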
